A study of Mus musculus with 6 samples.

Results

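Epha7, an Eph receptor, and 9 of its relatives were followed across 6 RNA-seq libraries of mouse brain tumours. The 10 genes are the receptors Epha7, Epha2, Epha3, Epha4, Epha5, Ephb1, Ephb2 and Ephb3 and the ligands Efna5 and Efnb2, and all 10 had a row among the 34591 gene rows of the count tables. They were taken by gene symbol. Epha7 was picked for its low level in the tumours labelled sh2-Ift88, and the other 9 were set beside it as its family, so the contrast between the groups chose the genes and their values in it are given as a description, with no test. The other 12 Eph and ephrin genes were not part of that choice and are described after them.

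The sh2-Ift88 group is 3 libraries that the labels call medulloblastoma sh2-Ift88 model, where the name stands for a hairpin aimed at Ift88, whose protein moves cargo into the primary cilium. They are set against 3 libraries of the control model. Both groups come from a mouse model of WNT medulloblastoma, a hindbrain tumour driven by active WNT signalling. The sources used here do not give the alleles that make the model, the strain, the age, the host, the control vector or the source of the tumour cells. Nor do they say that the 3 libraries of a group came from separate animals, so p-values measure only the spread between these samples, which may be technical.

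Eph receptors are receptor tyrosine kinases, and their ligands, the ephrins, are anchored in the membrane of neighbouring cells. A-class receptors mostly bind ephrin-A ligands, which are held by a lipid anchor, and B-class receptors mostly bind ephrin-B ligands, which span the membrane. Contact sends signals into both cells and usually makes them repel each other, and in the embryonic hindbrain this keeps cells of neighbouring segments apart. In the gut epithelium, Ephb2 and Ephb3 are known targets of beta-catenin and TCF factors.

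Gene counts per library summed to between 26802618 and 33772559 in the sh2-Ift88 group and between 27876540 and 32709246 in the controls. Ift88 itself had 519, 477 and 231 reads in the libraries labelled sh2-Ift88, against 455, 607 and 553 in the controls. This was 15.05 ± 0.859 CPM (counts-per-million values, scaled for composition) in the sh2-Ift88 group and 15.7 ± 3.47 CPM in controls (SD, n = 3 each). The difference was smaller than the spread (log2 fold change -0.064, SE 0.27, edgeR adjusted p = 0.9995), and each direction below is that of the label, which the transcript does not bear out. The library sh2-Ift88 3 stood apart: its scaling factor was 0.598, where the other 5 lay between 1.05 and 1.24. In it, 13 gene-model rows held 44.6% of the gene counts, against at most 9.68% in any other library. Each of these rows was picked for a share above 0.1% there and at least 3 times that in any other library. An excess over the others was thus fixed by that choice. Reads on olfactory receptor genes split the libraries across the groups: 387 to 564 such genes were detected in sh2-Ift88 2, sh2-Ift88 3 and control 2, and 24 to 38 in the other 3. The 13 rows followed the same split, with 6.72% in sh2-Ift88 2 and 9.68% in control 2, and at most 0.131% in those other 3. So did reads without a feature, at 31.9% to 39.5% against 18.8% to 25.6% of all tallied reads. Of the WNT target genes, Axin2 was at 320 to 509 CPM in the sh2-Ift88 group and 327 to 764 CPM in controls, and Lef1 at 69.0 to 107 CPM in the sh2-Ift88 group and 72.4 to 83.6 CPM in controls, while Dkk4 stayed at or below 0.687 CPM in all 6 libraries.

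Epha7 was the 1 gene of the 10 whose libraries fell into 2 groups that did not overlap. It had 46, 34 and 54 reads in the libraries labelled sh2-Ift88, against 433, 925 and 690 reads in the controls. In CPM this was 1.30, 1.14 and 3.37 in the sh2-Ift88 group and 13.1, 30.1 and 17.1 in the controls. Every control lay above every sh2-Ift88 library, and the nearest pair was sh2-Ift88 3 and control 1. The means were 1.94 ± 1.24 CPM in the sh2-Ift88 group and 20.1 ± 8.88 CPM in controls (SD, n = 3 each), which is 10.4-fold lower in the sh2-Ift88 group. The log2 fold change was -3.39 (SE 0.58). The libraries hold markers of several cell types, and fewer cells of a type and less RNA per cell cannot be told apart in them. The counts also join all transcripts of the gene, including the known shorter forms of the receptor that lack the kinase domain.

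The separation of Epha7 is read against the whole table. Of 16768 genes tested, 618 were lower in sh2-Ift88 with no overlap between the groups, which is 3.69%, and 788 were higher with none, which is 4.7%, or 8.39% in either direction. After Benjamini-Hochberg adjustment over all 16768 genes, edgeR's quasi-likelihood test called 0 genes higher and 0 lower, 0% each way, Epha7 included. At an unadjusted p of 0.05 it counted 541 genes, or 3.23%, of which 1.97% of all genes were higher and 1.26% lower, and limma-voom also called 0 after adjustment. DESeq2 called 58 higher and 17 lower, 0.306% and 0.0897% of the 18962 genes it gave an adjusted p, and with no filter on low counts edgeR had 5 genes past the threshold upward (0.0161%) and 1 downward (0.00323%). Epha7 was among the genes called by both, which is a description here because this contrast chose it. An absolute log2 fold change of at least 2 was reached by 1.75% of all genes and by 2 of the 10, Epha7 and Efna5.

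**Figure D1:**
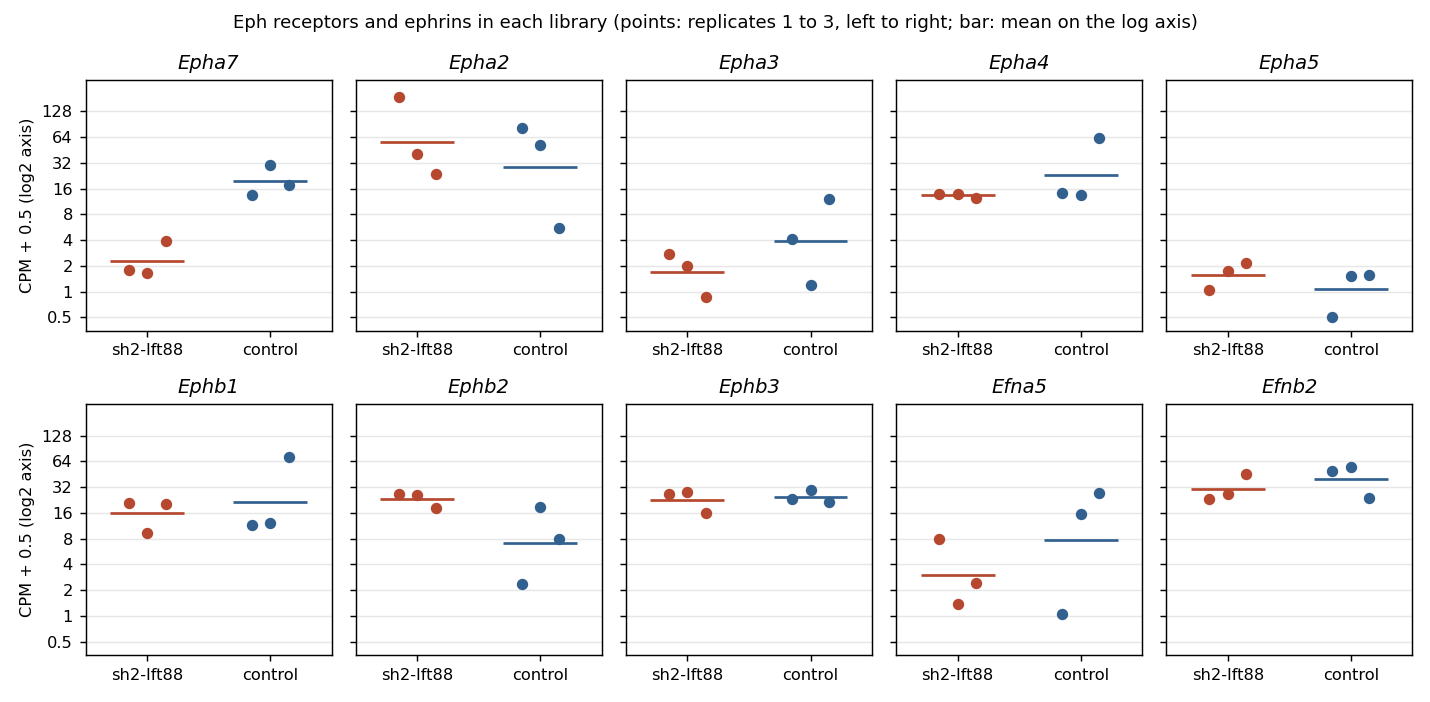
CPM plus 0.5 of the 10 genes in each library, on a log2 axis, with sh2-Ift88 replicates at the left and control replicates at the right of each panel; bars are group means on the log axis. The Epha7 panel shows sh2-Ift88 libraries at 1.14 to 3.37 CPM and controls at 13.1 to 30.1 CPM, while the points of the other 9 genes overlap between the groups.

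The low level of Epha7 did not depend on 1 library. Epha7 was picked from this contrast, and the fits below reuse its values, so they describe the spread and add no support. With each library left out in turn, its log2 fold change ran from -4.06 without sh2-Ift88 3 to -2.98 without control 2. Among the 3 libraries with many olfactory receptor genes it was at 1.14 and 3.37 CPM in sh2-Ift88 2 and 3 and at 30.1 CPM in control 2, a log2 fold change of -3.76 (SE 0.73). Among the other 3 it was at 1.30 CPM in sh2-Ift88 1 and at 13.1 and 17.1 CPM in controls 1 and 3, with -3.57 (SE 0.76). Both splits leave 1 library alone in a group, so the lone library is assumed to vary like the others. Summed markers are given beside it, and such sums mostly follow the most abundant genes of each list. For all 11 lists, of neurons, granule and Purkinje cells, astrocytes, oligodendrocytes, microglia, endothelium, mural cells and fibroblasts, choroid plexus, blood (5 of 7 genes in the table), progenitors and WNT tumour genes, the summed CPM overlapped between the groups, as did all but 8.39% of single genes, and the part of cell composition in the level of Epha7 was not tested.

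The stretch of DNA in front of the gene is shown for 3 receptors: Epha7, Ephb2, which had the highest log2 fold change of the 10, and Epha2, the 1 gene of the 10 with the TCF/LEF core in its window. Each window runs from 250 bases before to 50 bases after the start that RefSeq gives on build GRCm38.p6, at chr4:28812881-28813180 on the plus strand, chr4:136835963-136836262 on the minus strand and chr4:141300971-141301270 on the plus strand. Capitals mark the letters of 4 motifs searched on both strands. The TCF/LEF core was searched as CTTTGA, the GC box as GGGCGG, the third motif as CCAAT and the TATA box as TATAAA. None of these letters overlap each other in the windows shown.
Epha7: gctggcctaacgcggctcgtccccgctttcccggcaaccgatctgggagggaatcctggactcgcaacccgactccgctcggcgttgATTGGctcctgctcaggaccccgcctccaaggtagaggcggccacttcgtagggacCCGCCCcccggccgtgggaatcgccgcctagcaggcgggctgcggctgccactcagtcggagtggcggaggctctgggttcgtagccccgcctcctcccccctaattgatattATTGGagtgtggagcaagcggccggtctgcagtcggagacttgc
Ephb2: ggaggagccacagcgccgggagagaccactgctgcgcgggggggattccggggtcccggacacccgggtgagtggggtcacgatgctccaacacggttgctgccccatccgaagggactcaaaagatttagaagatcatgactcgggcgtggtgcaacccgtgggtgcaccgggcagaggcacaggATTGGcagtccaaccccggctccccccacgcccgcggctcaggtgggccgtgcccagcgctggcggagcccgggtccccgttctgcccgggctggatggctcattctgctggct
Epha2: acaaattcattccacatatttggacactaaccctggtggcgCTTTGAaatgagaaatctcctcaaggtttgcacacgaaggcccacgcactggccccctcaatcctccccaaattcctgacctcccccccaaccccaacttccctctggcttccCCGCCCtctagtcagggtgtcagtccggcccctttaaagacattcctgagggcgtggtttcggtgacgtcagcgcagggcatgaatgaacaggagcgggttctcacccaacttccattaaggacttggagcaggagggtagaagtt
Epha7 has a pair of RefSeq windows, of which the first is shown. It holds 2 CCAAT boxes and 1 GC box, and Ephb2 holds 1 CCAAT box. Epha2 has 1 GC box and 1 TCF/LEF core, which lies at -209 from the start. All 10 genes had a window, and of all 32841 windows of this length 16% held the TCF/LEF core, 35.7% the GC box, 37.4% the CCAAT box and 13.6% the TATA box. The Epha7 window has 28 CG dinucleotides and that of Ephb2 24, where the median of all windows is 7, and that of Epha2 has 10. A match is only a run of letters, and that the other 9 genes lack the TCF/LEF core says only that its letters are not in this window.

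Of the other A-class receptors, Epha3 and Epha4 had their highest level in 1 control. Epha4, which also binds ephrin-B ligands and marks alternate hindbrain segments in the embryo, was at 13.4, 13.5 and 11.8 CPM in the sh2-Ift88 group and at 13.7, 12.8 and 62.1 CPM in controls. Control 3 stood alone, and the other 5 libraries lay close together, between 11.8 and 13.7 CPM. Its log2 fold change was -1.20 (SE 0.63) with all libraries and -0.05 (SE 0.31) without control 3. Epha3, a receptor for ephrin-A ligands, was at 2.24, 1.48 and 0.375 CPM in the sh2-Ift88 group and at 3.60, 0.683 and 11.7 CPM in controls. The lowest control lay below 2 of the sh2-Ift88 libraries, and the log2 fold change of -1.95 (SE 1.06) was -0.64 (SE 0.96) without control 3 and 0.46 among the libraries with many olfactory receptor genes.

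Epha5, a receptor of developing axons, had 19 to 37 reads in the sh2-Ift88 group and 0 to 43 in controls. It was at 0.538, 1.24 and 1.69 CPM in the sh2-Ift88 group and at 0, 1.04 and 1.06 CPM in controls. Control 1 had 0 reads, which allows up to 0.0909 CPM (3 counts, counting error only). The groups overlapped, and the log2 fold change was 0.70 (SE 1.20). With libraries left out in turn it lay between 0.12 without control 1 and 1.13 without control 3. It was -0.05 (SE 2.68) among the libraries with few olfactory receptor genes and 1.91 in limma-voom.

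Epha2, the A-class receptor best known from epithelia and from many carcinomas, varied 36.7-fold over the 6 libraries. It was at 186, 40.2 and 23.0 CPM in the sh2-Ift88 group and at 81.2, 51.5 and 5.07 CPM in controls. The highest library was sh2-Ift88 1 and the lowest was control 3, with 4 libraries between them. The log2 fold change was 0.86 (SE 1.05), and it was -0.55 without sh2-Ift88 1. It was 2.09 among the libraries with few olfactory receptor genes and -0.72 among those with many. The same 2 libraries had the highest and lowest sum of the ependyma and choroid plexus markers. These 8 of 8 genes summed to 330 to 1752 CPM in the sh2-Ift88 group and to 53.5 to 465 CPM in controls. In summed CPM, both ends rested mainly on single genes. In sh2-Ift88 1 the choroid plexus gene Ttr made up 1389 of the 1752 CPM, and in the other 5 libraries it was at 0.739 CPM or less. Other genes of the list were also high in sh2-Ift88 1, where 5 of the 8 had their highest level. Folr1 was at 11.3 CPM there and Kl at 18.7 CPM, against at most 1.78 and 0.625 CPM elsewhere. Of the rest, 1 was highest in sh2-Ift88 2 and 2 in control 2. Otx2 was at 272, 309 and 260 CPM in the sh2-Ift88 group and at 337, 427 and 31.3 CPM in controls. No gene of that list was at 0 in any library, and its part in the level of Epha2 was not tested.

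The 3 B-class receptors differed in how their libraries were ordered. Ephb1, the receptor of retinal axons that do not cross at the optic chiasm, was at 20.5, 8.77 and 19.9 CPM in the sh2-Ift88 group and at 11.02, 11.8 and 71.1 CPM in controls. Control 3 was again far above the others, and without it the log2 fold change of -0.93 (SE 0.77) turned to 0.52 (SE 0.45), and it was 0.27 among the libraries with many olfactory receptor genes. Ephb2, which guides axons and shapes synapses, was at 25.9, 25.8 and 17.6 CPM in the sh2-Ift88 group and at 1.85, 18.4 and 7.47 CPM in controls. Control 2 lay above sh2-Ift88 3 by a narrow margin, and the other 2 controls lay below all 3. The means were 23.1 ± 4.75 CPM in the sh2-Ift88 group and 9.23 ± 8.40 CPM in controls (SD, n = 3 each), with a log2 fold change of 1.32 (SE 0.72). The value was 0.84 without control 1 and 2.30 without control 2, and it was 2.42 (SE 1.06) among the libraries with few olfactory receptor genes and 0.23 (SE 0.44) among those with many. Ephb3 was the steadiest of the 10, at 26.2, 27.6 and 15.6 CPM in the sh2-Ift88 group and at 23.1, 28.9 and 21.0 CPM in controls, a log2 fold change of -0.07 (SE 0.30). Its highest library was 1.85 times its lowest, against 14.0 times for Ephb2, the other known beta-catenin target of the gut epithelium.

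Efna5, an ephrin-A ligand that Epha7 binds, varied most of the 10 genes with reads in every library, 49.2-fold from lowest to highest. It was at 7.53, 0.874 and 1.94 CPM in the sh2-Ift88 group and at 0.545, 15.1 and 26.8 CPM in controls. The controls 2 and 3 lay above every other library, and control 1 lay below all. In control 1, Epha7 was thus at 13.1 CPM with its ligand at 0.545 CPM, while in sh2-Ift88 1 the receptor was at 1.30 CPM with the ligand at 7.53 CPM. The log2 fold change of Efna5 was -2.03 (SE 1.27), -3.45 (SE 0.73) among the libraries with many olfactory receptor genes and -0.93 (SE 2.37) among those with few. Efnb2, the ephrin-B ligand of arteries and of even-numbered hindbrain segments, was at 23.1, 26.4 and 45.0 CPM in the sh2-Ift88 group and at 48.8, 54.1 and 23.5 CPM in controls. It overlapped between the groups, with a log2 fold change of -0.42 (SE 0.40), and it kept its sign in all 19 alternatives to the processing. The endothelial list, of 12 genes, summed to 118 to 184 CPM in the sh2-Ift88 group and to 106 to 193 CPM in controls.

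**Figure D2:**
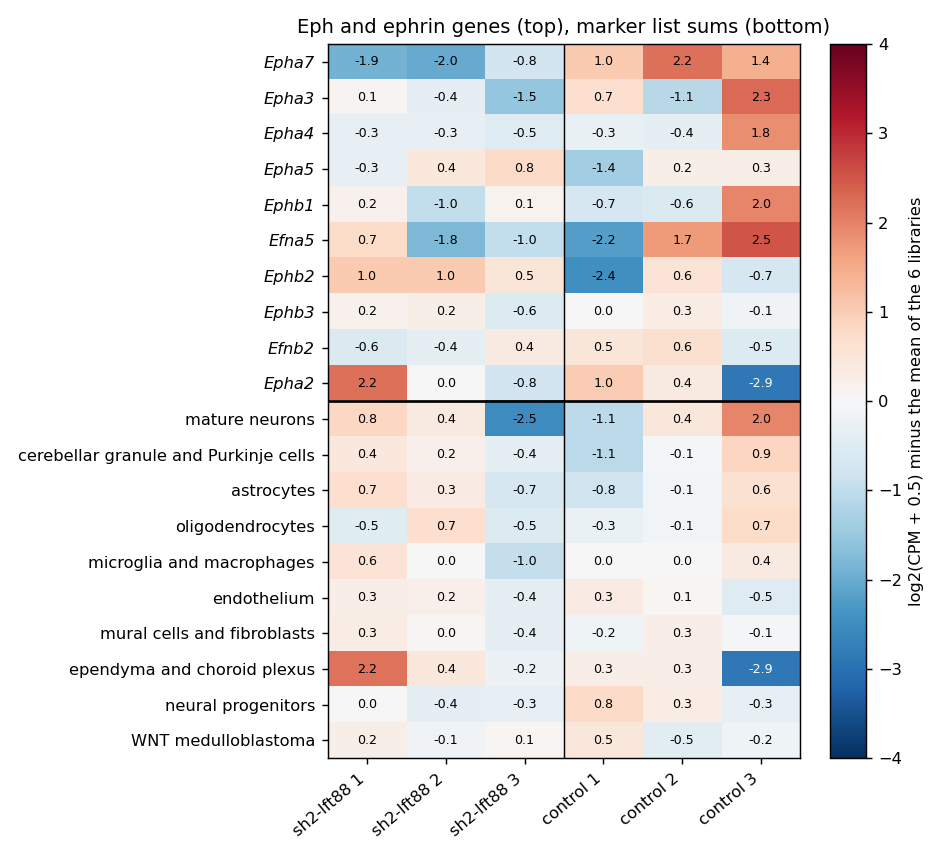
Level of the 10 genes (top) and summed level of 10 marker lists (bottom) in each library, as log2(CPM + 0.5) minus the mean of the 6 libraries; red is above and blue is below that mean, with sh2-Ift88 libraries in the 3 left columns. Epha3, Epha4, Ephb1 and Efna5 and the mature neuron list have their highest values in control 3, while Epha7 is below its mean in the 3 sh2-Ift88 libraries and above it in the 3 controls.

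Control 3, where Epha3, Epha4, Ephb1 and Efna5 were highest, also had the highest summed markers of mature neurons, of granule and Purkinje cells and of oligodendrocytes. The 12 of 12 mature neuron genes summed to 219, 159 and 21.1 CPM in sh2-Ift88 1, 2 and 3 and to 59.0, 168 and 482 CPM in controls 1, 2 and 3, and 11 of the 12 were highest in control 3. So were 11 of 12 genes of granule and Purkinje cells, whose sum was 588 to 997 CPM in the sh2-Ift88 group and 357 to 1368 CPM in controls, 10 of 11 oligodendrocyte genes and 6 of 9 astrocyte genes. Itpr1 made up most of the granule and Purkinje sum in each library, at 541 to 718 CPM in the sh2-Ift88 group and 341 to 742 CPM in controls. Pdgfra made up most of the oligodendrocyte sum, at 248 to 595 CPM in the sh2-Ift88 group and 283.5 to 482 CPM in controls. These 2 sums thus hide wider differences in less abundant genes. The granule cell gene Gabra6 was at 0 in control 1 and at 77.3 CPM in control 3, and Syn1 was at 0 in sh2-Ift88 3. The part of normal brain tissue in the 4 genes was not tested. Epha7 ordered the libraries differently: it was at 17.1 CPM in control 3, below control 2, and at 13.1 CPM in control 1. The mature neuron genes differed among themselves in control 1, with Snap25 at 0.545 CPM and Stmn2 at 40.2 CPM. Stmn2 was at 7.58, 5.75 and 1.06 CPM in the sh2-Ift88 group and at 40.2, 8.78 and 61.4 CPM in controls. Its groups did not overlap, as for 3.69% of all genes in this direction. The part of neurons in the level of Epha7 was not tested.

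Levels of different genes were set side by side per kilobase of exon. Averaged over the 6 libraries, Epha2 led the 10 at 13.8 CPM per kb, followed by Efnb2 at 5.37, Ephb3 at 3.57, Ephb1 at 3.41, Epha4 at 2.63, Efna5 at 2.18, Ephb2 at 1.28, Epha7 at 1.11, Epha3 at 0.384 and Epha5 at 0.0555 CPM per kb. For all 9 neighbouring pairs in that order, the ranges over the 6 libraries overlapped. Among all tested genes with a length, the mean of Epha2 was at the percentile 79.4 and that of Epha5 at 0.442. The mean over all libraries hides the groups for Epha7, which was at 0.196 ± 0.126 CPM per kb in the sh2-Ift88 group and 2.03 ± 0.898 CPM per kb in controls (SD, n = 3 each). Its neighbour Ephb2 was at 1.83 ± 0.377 CPM per kb in the sh2-Ift88 group and 0.732 ± 0.666 CPM per kb in controls, so the order of these genes by their means differed between the groups.

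Epha7 made up very different shares of the A-class receptors in the groups. Of the summed CPM per kb of the 9 A-class genes, Epha7 took 0.306%, 1.03% and 4.76% in sh2-Ift88 1, 2 and 3, against 6.24%, 18.2% and 13.1% in controls 1, 2 and 3. This is the difference in Epha7 again, on another scale. Epha2 was the leading A-class gene in 5 of 6 libraries, with 68.7% to 92.5% of the class in the sh2-Ift88 group and 65.9% and 81.7% in controls 2 and 1. In control 3 Epha4 led with 58.8%, and Epha2 took 8.26%. The class as a whole summed to 43.0, 11.3 and 7.16 CPM per kb in the sh2-Ift88 group and to 21.3, 16.7 and 13.1 CPM per kb in controls.

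The genes outside the 10 carried most of the B-class receptors and of the ligands. Ephb4, the venous receptor of Efnb2, led the B class in 5 libraries with 36.6% to 49.0%, and Ephb6, a receptor without kinase activity, led in control 1 with 51.9%. Efna4 led the ephrin-A ligands everywhere but in control 3, where Efna5 took 39.4%. Efnb1 led the ephrin-B ligands with 66.3% to 81.7% in the sh2-Ift88 group, and Efnb2 took more than Efnb1 only in control 3, with 43.1% against 40.8%. Control 3 thus had another leading gene than the other libraries in 3 of the 4 classes.

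**Figure D3:**
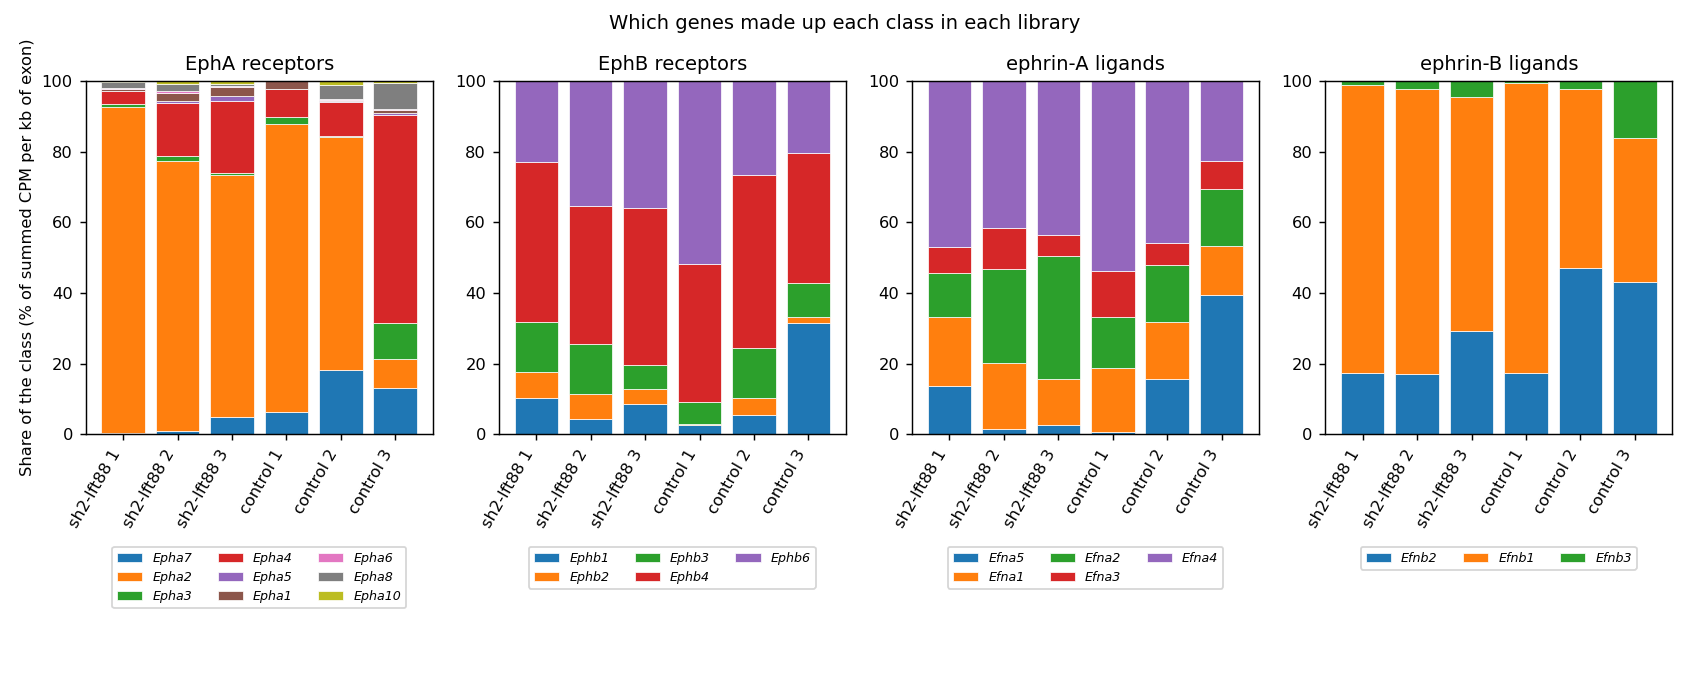
Share of each gene in the summed CPM per kb of its class, for the 9 A-class receptors, 5 B-class receptors, 5 ephrin-A ligands and 3 ephrin-B ligands, with 1 bar per library and sh2-Ift88 libraries at the left. Epha7, at the foot of the A-class bars, takes 0.306% to 4.76% in sh2-Ift88 libraries and 6.24% to 18.2% in controls, and control 3 differs from the rest in the leading gene of 3 classes.

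Of the 12 other family genes, none passed the test, and neither did any of the 16768 genes tested. Of these, 11 were tested with edgeR, and 3 had a positive and 8 a negative log2 fold change, with 0 past an adjusted p of 0.05 and 0 at an unadjusted p of 0.05. All 11 had an adjusted p of 0.9995 in edgeR's quasi-likelihood test, and none separated the groups. Of all genes tested, 3.23% had an unadjusted p under 0.05 and 8.39% separated the groups, in either direction. Counts of 0 among 11 genes are near those shares and are no result about the family. The median log2 fold change of the 11 was -0.34, beside -0.01 for all genes tested, of which 51.3% were lower and 48.7% higher. The other ephrin-A ligands stayed within narrower ranges than Efna5. Efna1 was at 4.43 to 4.89 CPM in the sh2-Ift88 group and 4.30 to 7.15 CPM in controls. Efna3 was at 2.55 to 3.93 CPM in the sh2-Ift88 group and 3.31 to 6.75 CPM in controls, and Efna4 at 9.41 to 12.9 CPM in the sh2-Ift88 group and 6.11 to 18.1 CPM in controls. Efna2 was at 3.62 to 13.7 CPM in the sh2-Ift88 group and 5.78 to 8.13 CPM in controls, with a log2 fold change of 0.32 (SE 0.52).

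Among receptors, Ephb4 was at 59.6, 53.2 and 68.6 CPM in the sh2-Ift88 group and at 105, 70.1 and 55.0 CPM in controls, a log2 fold change of -0.34 (SE 0.29). Ephb6 was at 24.3 to 45.3 CPM in the sh2-Ift88 group and at 25.0 to 113 CPM in controls, its highest value in control 1. The same library held the highest Efnb1, at 117 CPM, where the sh2-Ift88 group lay at 51.2 to 62.9 CPM and control 3 at 11.2 CPM. Efnb3, the ephrin-B ligand of the nervous system midline, was at 0.679 to 3.12 CPM in the sh2-Ift88 group and at 0.757 to 4.08 CPM in controls. Of the other A-class receptors, Epha1 reached at most 1.73 CPM, Epha10, a receptor without kinase activity, at most 1.20 CPM, and Epha8 at most 4.45 CPM. Epha6, at 0.424 CPM or less, did not pass the filter. The exons of Ephb1, Epha1, Epha6, Epha10, Ephb4, Efna3 and Efna4 overlap a gene on the other strand in GENCODE M21, by 33 to 344 bases. Reads on those bases may be set aside as ambiguous or counted for the other gene, since the strand setting of the counting is not stated.

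**Figure D4:**
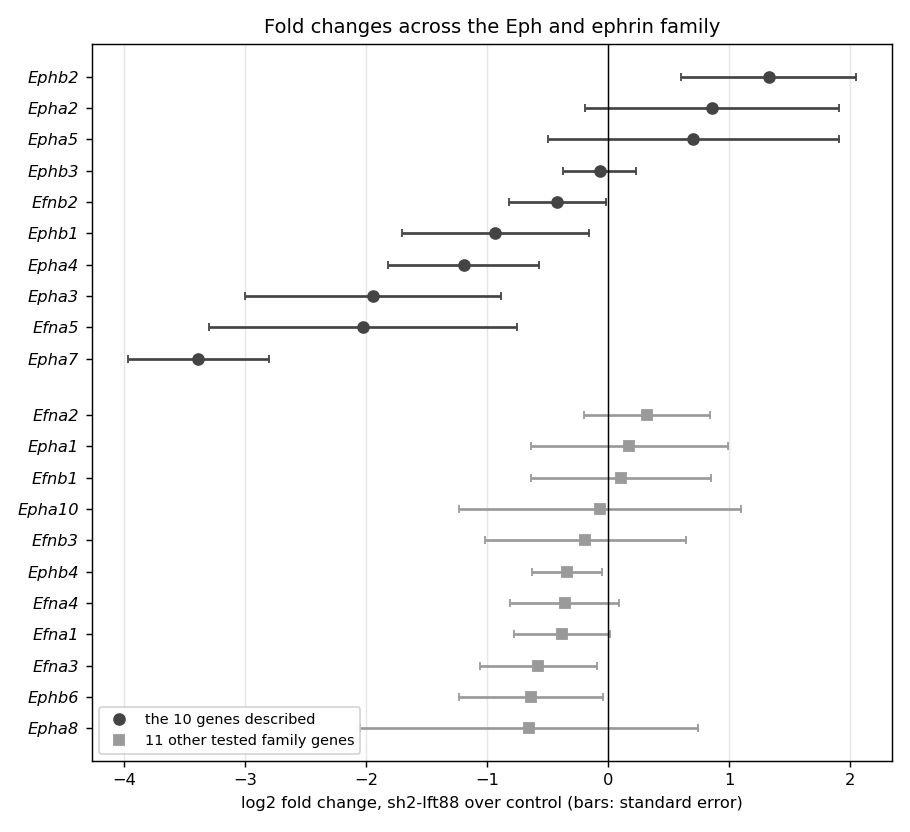
Log2 fold change of sh2-Ift88 over control with its standard error, for the 10 genes described (dots) and the 11 other tested family genes (squares), sorted within each set. Epha7 lies at -3.39, farther from 0 than any other, and the 11 other family genes lie between -0.66 and 0.32.

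The proteins that relay Eph signals did not pass either. Of 38 signalling partners listed, 37 were tested, with 21 higher and 16 lower in sh2-Ift88 and a median log2 fold change of 0.04. In edgeR's quasi-likelihood test 0 of them were past the adjusted threshold, and so were 0 of all 16768 genes. At an unadjusted p of 0.05, 0 were higher and 1, Sipa1l1, was lower. Of all genes tested, 1.97% were higher and 1.26% lower at that threshold, or 3.23% in either direction. Sipa1l1, a regulator of Rap GTPases at synapses that binds EphA receptors, was at 42.7, 40.9 and 37.2 CPM in the sh2-Ift88 group and at 82.6, 67.1 and 51.4 CPM in controls (log2 fold change -0.74, SE 0.25, edgeR adjusted p = 0.9995). The groups did not overlap, as for 3.69% of all genes in this direction. The next by p were Fyn, a Src family kinase, at 110, 44.2 and 70.6 CPM in the sh2-Ift88 group and 44.2, 49.2 and 29.1 CPM in controls, and Chn1, at 12.3, 4.33 and 6.81 CPM in the sh2-Ift88 group and 8.57, 23.5 and 21.9 CPM in controls. Chn1 is a Rac regulator that acts downstream of Epha4 in axon guidance. Ptpro, a phosphatase shown to act on Eph receptors in the chick, was at 11.1, 28.8 and 9.81 CPM in the sh2-Ift88 group and at 12.1, 4.94 and 3.24 CPM in controls. The libraries of these 3 genes overlapped between the groups.

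The genes whose levels were most like that of Epha7 were ranked by Pearson's r of log2(CPM + 0.5) over the 6 libraries, among 14750 genes outside the family with a mean of at least 1 CPM. Among the most alike were Cxcr2 (r = 0.98), Bicd2 (0.97), Pdzrn4 (0.97) and Trub2 (0.96). With 6 libraries in 2 groups, such values describe the likeness and are given no p. Since Epha7 itself splits by group, genes picked for a high r with it tend to split the same way through that choice. With each library left out in turn, r of these 4 genes lay between 0.948 and 0.998. Pdzrn4 was at 0.170, 0.336 and 0.562 CPM in the sh2-Ift88 group and at 1.88, 2.05 and 2.25 CPM in controls. Bicd2 covered a narrower range, at 42.1 to 47.5 CPM in the sh2-Ift88 group and 51.8 to 53.3 CPM in controls. Cxcr2 was at 0.773 to 1.12 CPM in the sh2-Ift88 group and at 1.67 to 2.15 CPM in controls.

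**Figure D5:**
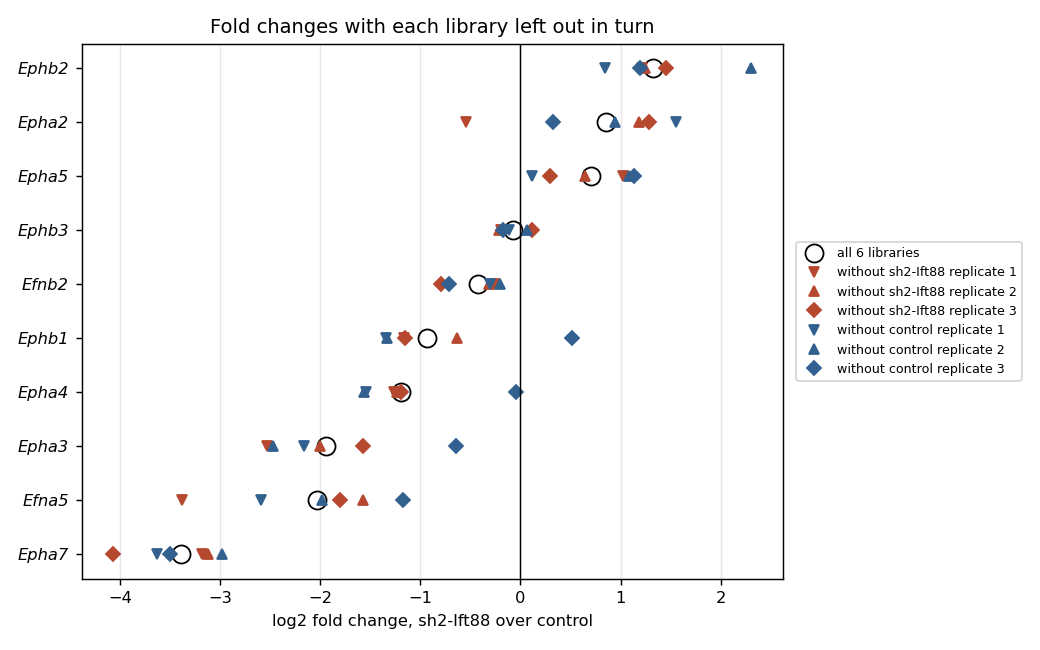
Log2 fold change of sh2-Ift88 over control for the 10 genes, with all 6 libraries (open circles) and with each library left out in turn (filled marks; red for a left-out sh2-Ift88 library and blue for a left-out control). Epha7 stays between -4.06 and -2.98, while Epha4 and Ephb1 move to -0.05 and 0.52 without control 3 and Epha2 to -0.55 without sh2-Ift88 1.

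Taking the 10 genes one by one, 7 had a negative and 3 a positive log2 fold change, with a median of -0.68, beside -0.01 for all genes. All 10 passed the filter on low counts, and 8 of them did so with every library of both groups. Since the genes were chosen from this contrast, that count supports nothing. With each library left out in turn, Epha7, Epha3, Epha4, Epha5, Ephb2, Efna5 and Efnb2 kept their sign, and Epha2, Ephb1 and Ephb3 did not.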

How the data were processed

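RNA-seq read counts per gene were analysed for 3 libraries labelled sh2-Ift88 and 3 control libraries, grouped by the sample descriptions. Per the labels' protocols, a stranded TruSeq kit was used. The submitters' processing notes name BWA and mm9, while the sources used here do not give the counter, the annotation or the strand setting. The authors deposited raw counts, 1 table per library, with 34591 gene rows and 5 tally rows. The tally rows entered neither library sizes nor tests. Reads without a feature were 18.8% to 39.5% of all tallied reads, ambiguous reads 0.876% to 4.37% and reads that did not align 2.93% to 10.2%. No libraries were pooled.

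The test was edgeR's (version 4.0.16, R 4.3.3) quasi-likelihood test on all genes (filterByExpr, which left 16768 genes, TMM factors, glmQLFit with robust=TRUE, two-sided glmQLFTest, Benjamini-Hochberg adjustment at 0.05), with no covariate. Levels are CPM from TMM-scaled library sizes, given as mean ± SD. CPM per kb divides by the union of exons in GENCODE M21 (GRCm38), which matched 84.7% of the symbols and all 22 family genes. It was used for lengths, overlaps and chromosomes only. Promoter windows are RefSeq's. The fits were tested on simulated data. The 10 genes and all lists were chosen with earlier results of these data known. The genes named are those 10, the 12 other family genes, Ift88, the 4 signalling partners of smallest p, the 5 genes most like Epha7, of which 1 is not reported here, and marker genes at the extremes. The motifs and the 3 windows printed were chosen after values were seen. The alternatives were DESeq2 1.42.0, limma-voom (limma 3.58.1), other scalings and filters, the olfactory receptor term, its within-group fits and each library left out. After the data were seen, 2 more left out the 13 rows that dominate sh2-Ift88 3.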

Additional observations from a re-analysis of the deposited data

How the results depend on the processing

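No paired analysis was possible because the labels carry no replicate numbers, and those used here only name libraries in order of accession. The count of 0 genes past the threshold, in either direction, held in edgeR with each library left out in turn (lowest and highest count 0), with other scalings, with limma-voom, with the filter of 1 CPM, with the olfactory receptor term and within each class of libraries. DESeq2 called 75 genes, 58 higher and 17 lower, while the unfiltered edgeR fit had 6 genes past the threshold (5 and 1). Each of these called 1 of the genes described, Epha7, with a DESeq2 adjusted p = 6.65e-06 and an unfiltered edgeR adjusted p = 0.0389. Its adjusted p from edgeR or limma-voom in the other alternatives ran from 0.278 upward. The log2 fold change of Epha7, which was picked from this contrast, kept its sign in all 19 alternatives, with a range of -4.06 to -2.98. Library totals alone moved the median of all genes to -0.33 and Epha7 to -3.88. In DESeq2 and in the unfiltered fit, which cover more genes of low counts, the median over their own genes was 0.12. The cause of these differences was not tested.

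Among the other family genes, none of which passed, signs turned as follows. With library totals alone the log2 fold change was -0.049 for Epha1, -0.15 for Efna2 and -0.12 for Efnb1. Limma-voom gave 1.38 for Epha10, and the olfactory receptor term gave -0.16 for Efna2. Within the libraries with few olfactory receptor genes the values were -0.22 for Epha1, 0.61 for Epha8, 0.84 for Epha10, -0.78 for Efna2 and -0.23 for Efnb1, and within those with many they were 0.43 for Ephb6 and 0.94 for Efnb3. With libraries left out in turn the values ran from -0.29 to 1.49 for Epha1, -2.08 to 0.015 for Epha8, -0.65 to 0.94 for Epha10, -1.003 to 0.36 for Ephb6, -0.26 to 0.66 for Efna2, -0.39 to 1.47 for Efnb1 and -0.91 to 0.84 for Efnb3. Few reads limit Epha5, Epha6 and Epha10, which had at most 43, 15 and 37 reads in any library and 0 in control 1.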
